A study of Homo sapiens with 8 samples.

Results

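The interaction of IRF5-4D and IKKβ(EE) is described here across all genes: how far the expression level in cells that received both constructs departed from the level expected if the log2 changes seen with each construct alone added up. It uses every sample of the series, 8 of 8 arrays. The cells were Reh, an established human precursor B cell line derived from an acute lymphoblastic leukemia. They were transfected with IRF5-4D together with IKKβ(EE), with IRF5-4D alone, with IKKβ(EE) alone, or with control constructs (mock), and each of these 4 groups has 2 biological replicates, numbered 1 and 3. IRF5-4D and IKKβ(EE) are constitutively active forms of interferon regulatory factor 5 and of the IκB kinase β. What the numbers stand for, the time after transfection, the promoters of the constructs and how many of the cells took up the constructs are not stated in the labels or the design text. In bulk RNA from such cultures, a higher share of responding cells and more RNA per responding cell cannot be told apart.

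For each gene the departure is the mean log2 value with both constructs, minus that with IRF5-4D, minus that with IKKβ(EE), plus that in mock cells. A departure of 0 means that the folds of the single constructs multiply. A positive one (more than additive) means a higher level than that, and a negative one (less than additive) a lower level. Whether a departure differed from 0 was tested with limma over all 19775 genes, and a gene is called at a Benjamini-Hochberg adjusted p under 0.05.

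As background, IRF5 is a transcription factor that is held inactive in the cytoplasm, and after phosphorylation it forms dimers, enters the nucleus and binds interferon response elements. IKKβ phosphorylates the inhibitor IκBα, whose degradation frees NF-κB dimers to enter the nucleus. Promoters and enhancers of many inflammatory genes hold sites for both kinds of factor. In B cells both pathways lie downstream of Toll-like receptors, and both are known for activity in Hodgkin lymphoma cells.

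The transfected genes were read first. A probe set of IKBKB, the gene of IKKβ, was at 11.11 and 9.33 with both constructs, 4.68 and 4.60 with IRF5-4D, 12.57 and 10.98 with IKKβ(EE) and 4.80 and 4.06 in mock cells. It was high in the groups that received IKKβ(EE), whose arrays overlapped, with a departure of −1.77 (SE 0.84, adjusted p = 0.809 over all annotated probe sets). The 2 other probe sets of IKBKB had departures of −0.03 and 0.21. IRF5 was at 8.0 and 7.82 with both constructs, 7.15 and 7.25 with IRF5-4D, 6.95 and 7.13 with IKKβ(EE) and 6.93 and 7.06 in mock cells, a departure of 0.67 (SE 0.18, adjusted p = 0.415). A second probe set of IRF5 averaged 5.58 with both constructs, 5.65 with IRF5-4D, 5.08 with IKKβ(EE) and 5.09 in mock cells, with a departure of −0.07, and another had a departure of 0.20. No source used here says which of these probe sets read the transfected sequences, and they do not measure the protein. The array medians lay between 5.10 and 5.14 and the lower quartiles between 3.67 and 3.73, so levels near 4 and below lie close to the floor of these arrays. The mean over 9 precursor B cell markers was 11.27 to 11.52 with both constructs, 11.28 to 11.38 with IRF5-4D, 11.26 to 11.29 with IKKβ(EE) and 11.22 to 11.37 in mock cells. Markers of T and NK cells (4.74 to 4.78 with both constructs, 4.86 to 4.90 in mock cells), of myeloid cells (4.43 to 4.64 against 4.59 to 4.72) and of stromal and epithelial cells (5.06 to 5.10 against 5.07 to 5.09) averaged near or under the array median, and none of their members was called in limma (1 of 27 had an unadjusted p under 0.05).

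Most genes lay close to additivity. Of 19775 genes, 18421 (93.2%) departed by no more than 0.5 on the log2 scale, the median departure was 0.02, and 53.3% lay above 0. A departure of at least 1 was seen in 168 genes and one of at most −1 in 60 genes. The test called 25 genes (0.126% of those tested), 19 of them more than additive (0.0961%) and 6 less than additive (0.0303%). At an unadjusted p under 0.05 there were 755 genes more (3.82%) and 451 less than additive (2.28%). The called departures ran from 1.62 to 5.06 in the genes above additivity and from −3.62 to −1.66 in those below. The last genes inside the threshold were SYT3 and TMCC3 (adjusted p = 0.0492), and the first outside it was CYTH1, with a departure of −1.10 (SE 0.16, adjusted p = 0.0595).

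The counts changed when single arrays were left out, more than the sizes of the departures did. Without array 3 of both constructs, 73 genes were called more than additive. That count was 17 without array 1 of both constructs, 1 and 0 without array 1 or 3 of IRF5-4D, 1 and 2 without array 1 or 3 of IKKβ(EE), and 10 and 12 without array 1 or 3 of mock. In limma at the count of 0, the unadjusted p was under 0.05 for 687 genes. The genes called less than additive numbered 5 and 7 without array 1 or 3 of both constructs, 1 and 0 without array 1 or 3 of IRF5-4D (390 at an unadjusted p under 0.05 at the count of 0), 1 each without array 1 or 3 of IKKβ(EE), and 4 and 8 without array 1 or 3 of mock. Each such fit leaves a group with 1 array, which is assumed to vary like the others. No called gene kept its call in all 8 fits. HSFX3 kept it in 7, and the direction of all 25 held in each.

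**Figure D1:**
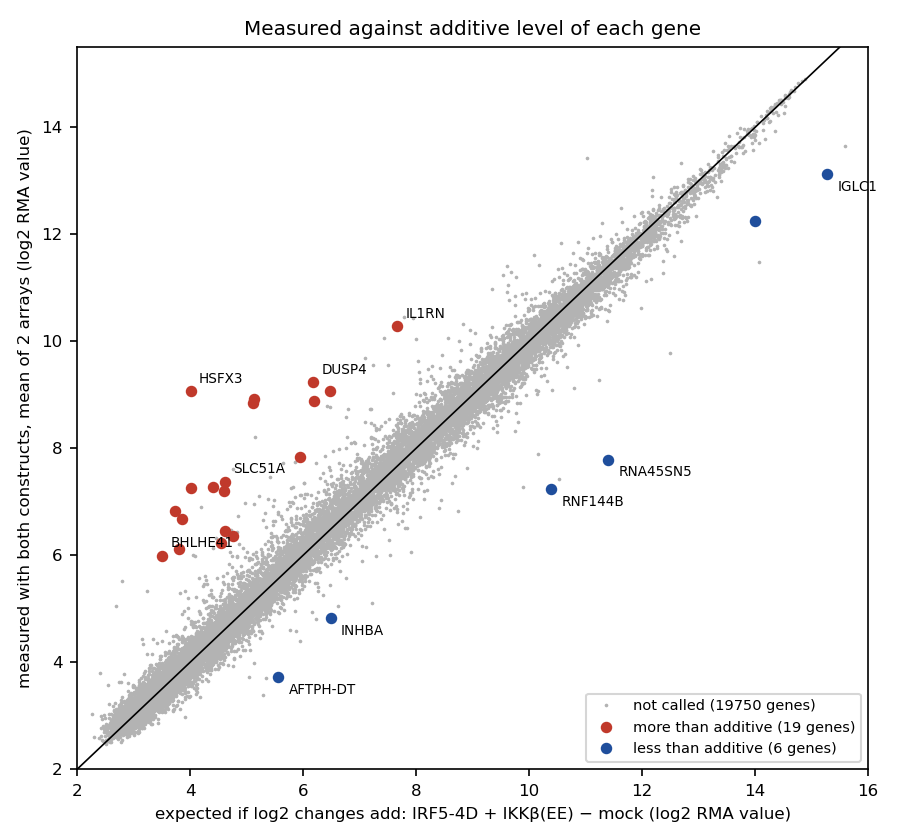
Each point is a gene, with the level expected from adding the log2 changes of the single constructs on the x axis and the level measured with both constructs on the y axis (means of 2 arrays, log2 RMA values). On the diagonal the constructs add. The 19 red points are genes called more than additive and the 6 blue points genes called less than additive, and most of the red ones lie at expected levels below 6.

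Genes that stayed within 2-fold of mock with either construct alone and rose with both were the most common pattern. Of the 19 genes called more than additive, 15 were under 2-fold above mock in each single-construct group and at least 2-fold above it with both. In all 19, both arrays with both constructs lay above all 6 other arrays, an ordering seen in 8.13% of genes tested. Since the test of the departure uses these same arrays, that ordering is a description. The 4 others had already reached 2-fold with IRF5-4D alone, and none of the 19 had with IKKβ(EE) alone. The brightest IRF5 probe set was itself higher with both constructs than with IRF5-4D alone, by 0.71 (limma, adjusted p = 0.0322). Its other probe sets differed by −0.07 and 0.23 in the same comparison. What part the level of IRF5 had in the departures of these 19 genes was not tested.

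**Figure D2:**
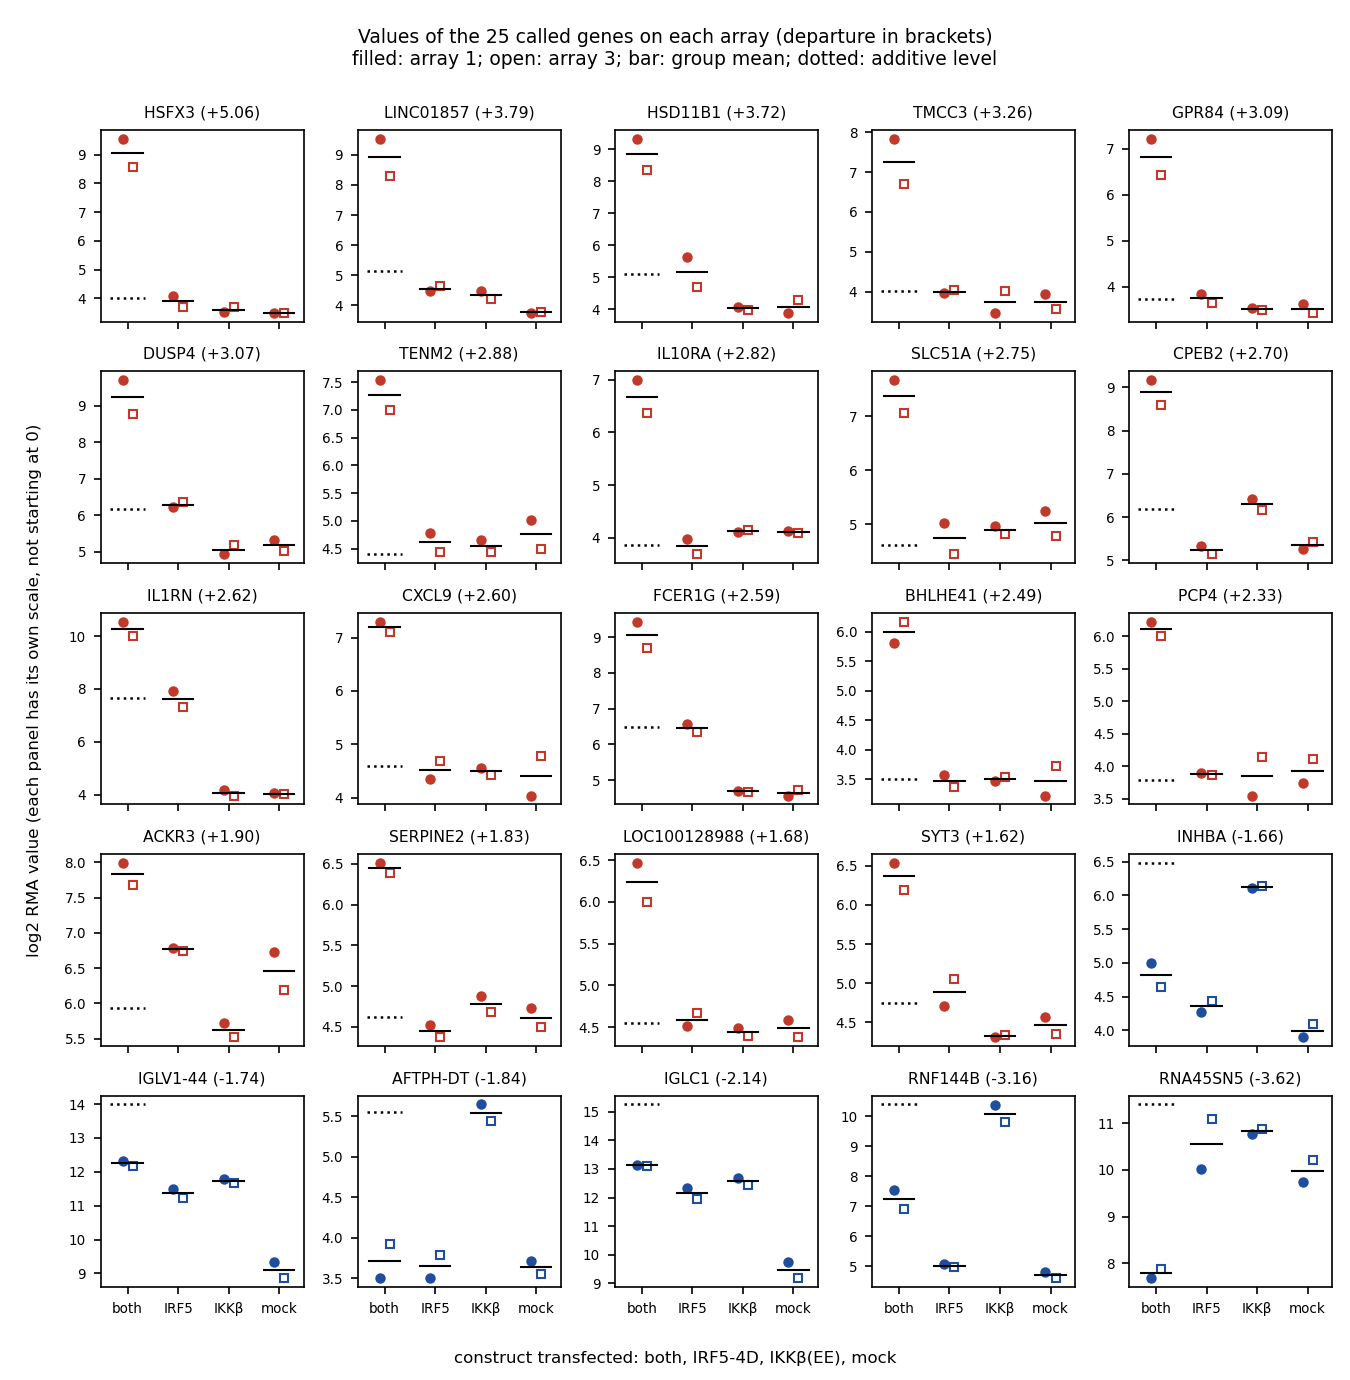
Levels of the 25 called genes on each array (log2 RMA value, each panel with its own scale) with both constructs, IRF5-4D, IKKβ(EE) and mock from left to right. Filled points are arrays 1, open squares arrays 3, bars group means and dotted lines the additive level. In the 19 red panels both arrays with both constructs are the highest, and in RNA45SN5 they are the lowest.

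Among the 15 were 1 chemokine and 3 receptors. CXCL9, a chemokine that attracts T cells through CXCR3, was at 7.30 and 7.10 with both constructs, 4.34 and 4.68 with IRF5-4D, 4.56 and 4.43 with IKKβ(EE) and 4.04 and 4.78 in mock cells. The arrays with both constructs lay well above the other 6, which overlapped each other. Its departure was 2.60 (SE 0.32, adjusted p = 0.0238). IL10RA, the ligand-binding chain of the interleukin-10 receptor, was at 6.99 and 6.36 with both constructs, 3.99 and 3.69 with IRF5-4D, 4.12 and 4.15 with IKKβ(EE) and 4.13 and 4.10 in mock cells. The arrays of both constructs were again alone above the array median, and the departure was 2.82 (SE 0.27, adjusted p = 0.0155). GPR84, a receptor for medium-chain fatty acids known from myeloid cells, was at 7.21 and 6.43 with both constructs, 3.84 and 3.65 with IRF5-4D, 3.53 and 3.49 with IKKβ(EE) and 3.62 and 3.42 in mock cells. All 6 arrays without the combination were near the floor, and the departure was 3.09 (SE 0.31, adjusted p = 0.0155). ACKR3, an atypical receptor that takes up CXCL12, was at 7.99 and 7.68 with both constructs, 6.79 and 6.74 with IRF5-4D, 5.72 and 5.52 with IKKβ(EE) and 6.72 and 6.18 in mock cells. Alone of these 4 it lay above the array median in every group, and its lowest arrays were those with IKKβ(EE) alone. Its departure was 1.90 (SE 0.26, adjusted p = 0.0449), but 2 other probe sets of ACKR3 gave 0.42 and −0.02.

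Promoter sequences were read from RefSeq (GRCh38.p14) for 16 of the 25 called genes, 13 of them more than additive. Each runs from 250 bases before to 50 after 1 listed start per gene, and other starts were not searched. The start used for TENM2 lies inside the gene, whose listed span begins at chr5:166979029. The core of the interferon response element, searched as GAAA, any 2 bases and GAAA on either strand, was found in 2 of these 13 (15.4%), in CXCL9 and TENM2, against 996 of 27305 promoters in the whole table (3.65%) and 453 of the 15382 promoters of tested genes (2.95%). The NF-κB consensus was found in 0 of the 13 and in 1 of 3 of the less than additive genes (AFTPH-DT), against 5.72% of all promoters. The 2 motifs were searched independently of each other. The 2 promoters with the interferon core are shown because CXCL9 and TENM2 alone held it among the 16 called genes searched. Capitals mark the match, which begins at position −171 from the start in CXCL9 (chr4:76007460-76007759, minus strand) and at position −20, on the opposite strand, in TENM2 (chr5:167072992-167073291, plus strand). Such a match is a description and not a binding site.
CXCL9: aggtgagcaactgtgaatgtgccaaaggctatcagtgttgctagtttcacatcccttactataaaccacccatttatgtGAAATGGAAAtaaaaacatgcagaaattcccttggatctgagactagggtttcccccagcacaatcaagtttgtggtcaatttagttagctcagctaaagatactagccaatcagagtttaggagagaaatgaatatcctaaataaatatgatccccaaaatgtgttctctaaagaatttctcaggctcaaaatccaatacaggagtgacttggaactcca
TENM2: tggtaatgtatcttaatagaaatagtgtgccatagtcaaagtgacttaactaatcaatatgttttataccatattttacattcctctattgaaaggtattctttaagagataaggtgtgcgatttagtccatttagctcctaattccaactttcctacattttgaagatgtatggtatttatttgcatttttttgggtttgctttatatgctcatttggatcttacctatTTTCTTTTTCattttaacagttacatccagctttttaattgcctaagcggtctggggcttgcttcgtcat

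Others of the 15 encode a DNA- or RNA-binding protein or are non-coding RNAs. HSFX3, an X-linked member of the heat shock transcription factor family, had the largest called departure. It was at 9.55 and 8.57 with both constructs, 4.07 and 3.71 with IRF5-4D, 3.51 and 3.69 with IKKβ(EE) and 3.49 and 3.49 in mock cells. No array without the combination was above 4.07, and 2 of these 3 groups averaged under the lower quartile of the arrays. Its departure was 5.06 (SE 0.38, 95% interval 4.20 to 5.92, adjusted p = 0.00575), and 3.97 (adjusted p = 0.0693) when values under the array median were raised to it. HSFX genes have near-identical copies, so which copy the probe set reads is uncertain. LINC01857, a long non-coding RNA, was at 9.54 and 8.30 with both constructs, 4.46 and 4.62 with IRF5-4D, 4.48 and 4.21 with IKKβ(EE) and 3.74 and 3.77 in mock cells. The single-construct arrays were somewhat above mock without reaching the array median, and the departure was 3.79 (SE 0.45, adjusted p = 0.0238). CPEB2, an RNA-binding regulator of polyadenylation and translation, was at 9.16 and 8.60 with both constructs, 5.33 and 5.14 with IRF5-4D, 6.42 and 6.17 with IKKβ(EE) and 5.26 and 5.43 in mock cells. It was above the array median in every group, and IKKβ(EE) alone gave a difference of 0.95 from mock (adjusted p = 0.0908). The departure of CPEB2 was 2.70 (SE 0.27, adjusted p = 0.0155), and its other 2 probe sets gave 1.58 and −0.18. BHLHE41, a transcriptional repressor known from the circadian clock, was at 5.81 and 6.17 with both constructs, 3.58 and 3.37 with IRF5-4D, 3.47 and 3.53 with IKKβ(EE) and 3.22 and 3.73 in mock cells. The departure was 2.49 (SE 0.26, adjusted p = 0.0155), from levels near the floor outside the combination. The 3 other probe sets of BHLHE41 had departures between −0.23 and 0.23. LOC100128988, a non-coding RNA, was at 6.47 and 6.0 with both constructs, 4.52 and 4.67 with IRF5-4D, 4.49 and 4.40 with IKKβ(EE) and 4.59 and 4.38 in mock cells, with a departure of 1.68 (SE 0.23, adjusted p = 0.0449).

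Secreted, membrane and calcium-linked proteins followed the same shape. TENM2, a teneurin adhesion protein of the cell surface, was at 7.54 and 7.0 with both constructs, 4.78 and 4.44 with IRF5-4D, 4.65 and 4.43 with IKKβ(EE) and 5.02 and 4.49 in mock cells. The departure was 2.88 (SE 0.32, adjusted p = 0.0203), and the 6 arrays without the combination overlapped. SLC51A, a subunit of an organic solute transporter that exports bile acids, was at 7.67 and 7.07 with both constructs, 5.04 and 4.45 with IRF5-4D, 4.97 and 4.82 with IKKβ(EE) and 5.25 and 4.78 in mock cells. No array without the combination exceeded 5.25, and the departure was 2.75 (SE 0.36, adjusted p = 0.032). SERPINE2, a secreted inhibitor of serine proteases, was at 6.51 and 6.38 with both constructs, 4.52 and 4.38 with IRF5-4D, 4.87 and 4.68 with IKKβ(EE) and 4.73 and 4.49 in mock cells. The replicates of each group lay within 0.24 of each other. The departure was 1.83 (SE 0.19, adjusted p = 0.0155), while its other probe set gave 0.10. PCP4, a small regulator of calmodulin, was at 6.23 and 6.01 with both constructs, 3.89 and 3.86 with IRF5-4D, 3.55 and 4.14 with IKKβ(EE) and 3.75 and 4.12 in mock cells, and its departure was 2.33 (SE 0.29, adjusted p = 0.0238). SYT3, a synaptotagmin that senses calcium in vesicle release, was at 6.54 and 6.19 with both constructs, 4.71 and 5.05 with IRF5-4D, 4.31 and 4.34 with IKKβ(EE) and 4.57 and 4.35 in mock cells. Its groups were separated by the smallest margin among these 6 genes, with a departure of 1.62 (SE 0.23, adjusted p = 0.0492). TMCC3, a membrane protein of the endoplasmic reticulum, was at 7.83 and 6.69 with both constructs, 3.96 and 4.05 with IRF5-4D, 3.47 and 4.03 with IKKβ(EE) and 3.94 and 3.56 in mock cells. Its 2 arrays with both constructs differed by more than 1, and its departure was 4.35 from the arrays numbered 1 and 2.16 from those numbered 3. The departure over all arrays was 3.26 (SE 0.47, adjusted p = 0.0492), and its other probe set gave 5.10 (SE 0.30, adjusted p = 0.00057 over all annotated probe sets).

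In 4 genes IRF5-4D alone raised the level at least 2-fold in the fit and the combination carried it further. IL1RN, the secreted antagonist of the interleukin-1 receptor, was at 10.55 and 10.01 with both constructs, 7.93 and 7.33 with IRF5-4D, 4.19 and 3.97 with IKKβ(EE) and 4.07 and 4.02 in mock cells. IKKβ(EE) alone left it within 0.2 of mock. Adding IRF5-4D changed IL1RN by 6.20 in the presence of IKKβ(EE) and by 3.59 in its absence, and the departure was 2.62 (SE 0.32, adjusted p = 0.0238). Its 4 other probe sets gave 2.03, 1.5, 1.32 and 0.00, the last from levels under the lower quartile, and IRF5-4D alone did not pass against mock on any of them. With its probe sets averaged the departure of IL1RN was 1.49. FCER1G, the signalling chain shared by several Fc receptors, was at 9.43 and 8.70 with both constructs, 6.55 and 6.34 with IRF5-4D, 4.69 and 4.67 with IKKβ(EE) and 4.56 and 4.73 in mock cells. The order of the groups was that of IL1RN, with a departure of 2.59 (SE 0.30, adjusted p = 0.0238), and a second probe set gave 3.37 (SE 0.25, adjusted p = 0.00198 over all annotated probe sets). DUSP4, a phosphatase that inactivates MAP kinases, was at 9.70 and 8.77 with both constructs, 6.22 and 6.36 with IRF5-4D, 4.93 and 5.18 with IKKβ(EE) and 5.32 and 5.03 in mock cells. Its departure was 3.07 (SE 0.37, adjusted p = 0.0238), and its other 2 probe sets gave 2.69 and 2.24. HSD11B1, the enzyme that regenerates active cortisol from cortisone, was at 9.32 and 8.35 with both constructs, 5.63 and 4.71 with IRF5-4D, 4.07 and 3.99 with IKKβ(EE) and 3.88 and 4.29 in mock cells. Its IRF5-4D arrays differed by 0.92 and both lay above the mock and IKKβ(EE) arrays, and the departure was 3.72 (SE 0.49, adjusted p = 0.0336). Of these 4, IL1RN and FCER1G passed the test for IRF5-4D alone against mock, as did 62 genes in all (0.314%). At the probe sets used here DUSP4 and HSD11B1 did not, with differences of 1.12 (adjusted p = 0.34) and 1.08 (adjusted p = 0.803). Another DUSP4 probe set did pass, with a difference of 2.32 (adjusted p = 0.00752 over all annotated probe sets).

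**Figure D3:**
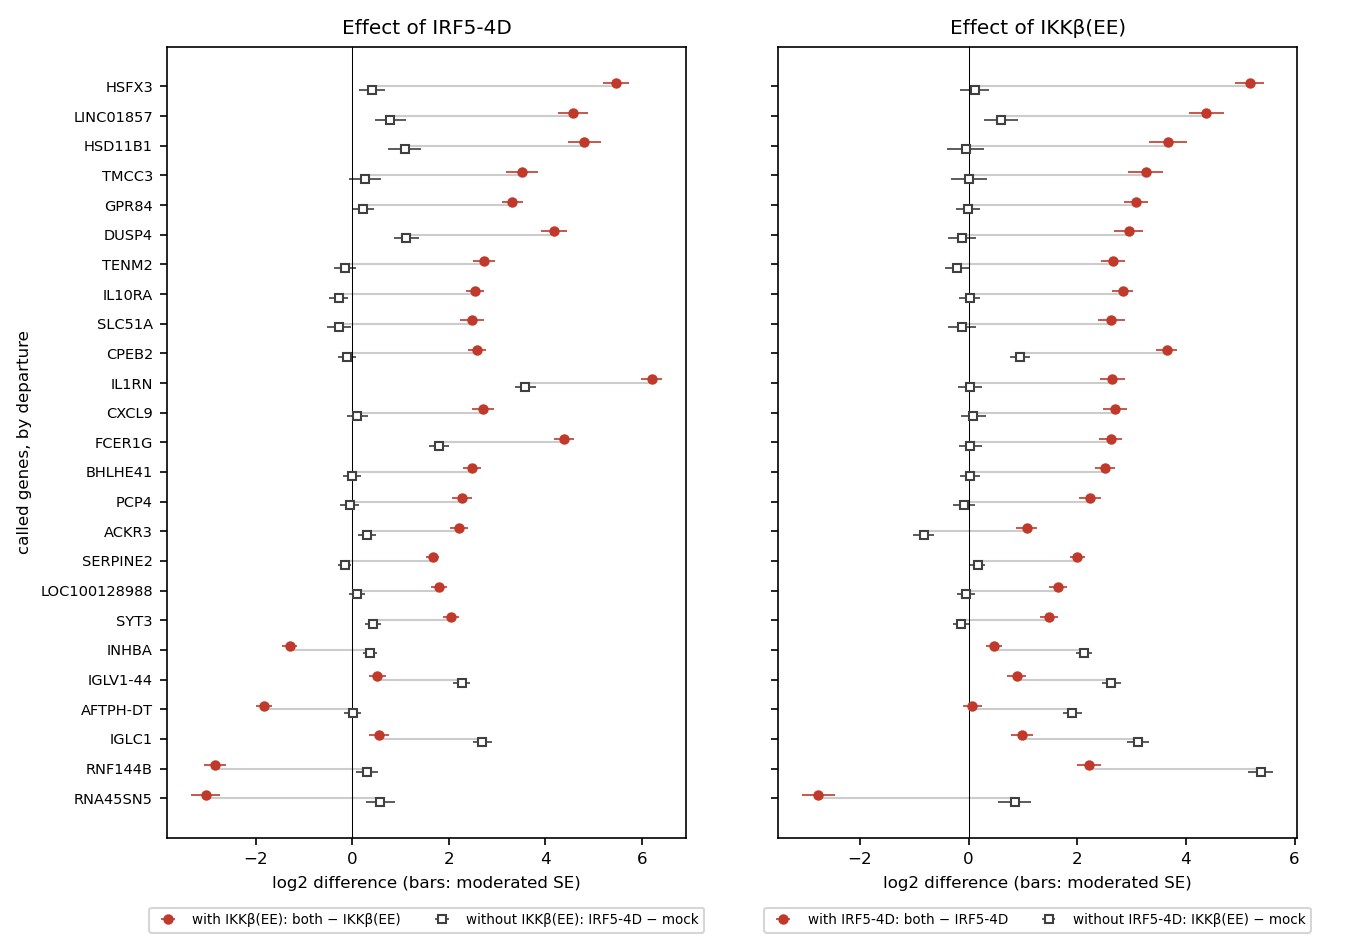
Effect of IRF5-4D (left) and of IKKβ(EE) (right) on each called gene, as log2 differences with moderated standard errors (bars). Filled points give the effect in the presence of the other construct and open squares the effect without it, so the gap in each line is the departure. IKKβ(EE) changed IL1RN by 2.65 beside IRF5-4D and by 0.03 without it, while for RNF144B it gave 2.22 beside IRF5-4D and 5.38 without it.

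Of the 6 genes called less than additive, 3 were raised by IKKβ(EE) alone and lower when IRF5-4D was present. RNF144B, a ubiquitin ligase of the RBR family, was at 7.55 and 6.92 with both constructs, 5.07 and 4.96 with IRF5-4D, 10.36 and 9.81 with IKKβ(EE) and 4.82 and 4.59 in mock cells. IKKβ(EE) alone gave the highest arrays, and those with both constructs stood between these and the rest. IKKβ(EE) changed RNF144B by 2.22 in the presence of IRF5-4D and by 5.38 in its absence. The departure was −3.16 (SE 0.33, 95% interval −3.90 to −2.43, adjusted p = 0.0155), so that the level was 8.95-fold under the additive one. The 3 other probe sets of RNF144B gave −1.78, −1.10 and −0.77. INHBA, a subunit of activin A and of inhibin A, was at 5.0 and 4.63 with both constructs, 4.27 and 4.44 with IRF5-4D, 6.10 and 6.14 with IKKβ(EE) and 3.90 and 4.09 in mock cells. All IKKβ(EE) arrays lay above those of the other groups, and the departure was −1.66 (SE 0.21, adjusted p = 0.0294). The other probe sets of INHBA gave −1.53 and 0.07. AFTPH-DT, a non-coding RNA transcribed away from AFTPH, was at 3.50 and 3.93 with both constructs, 3.50 and 3.79 with IRF5-4D, 5.65 and 5.44 with IKKβ(EE) and 3.72 and 3.55 in mock cells. Its level with both constructs overlapped that of mock cells, and the departure was −1.84 (SE 0.24, adjusted p = 0.0345). Of the 6 genes, 5 passed the test for IKKβ(EE) alone against mock, as did 102 genes in all (0.516%). The IKBKB probe set named above averaged 10.22 with both constructs and 11.78 with IKKβ(EE) alone, and its part in these 3 differences was not tested.

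The immunoglobulin lambda genes rose with either construct and stood less than 1 higher with both. IGLC1, a constant region of the lambda light chain, was at 13.15 and 13.10 with both constructs, 12.34 and 11.95 with IRF5-4D, 12.69 and 12.45 with IKKβ(EE) and 9.74 and 9.17 in mock cells. IRF5-4D alone raised it by 2.70 and IKKβ(EE) alone by 3.12. Both together gave 3.67 over mock and a departure of −2.14 (SE 0.29, adjusted p = 0.0355). The additive level would have been 15.27, above the highest value of any gene on the arrays (14.92). IGLV1-44, a lambda variable segment, was at 12.32 and 12.19 with both constructs, 11.49 and 11.24 with IRF5-4D, 11.79 and 11.67 with IKKβ(EE) and 9.35 and 8.85 in mock cells, with a departure of −1.74 (SE 0.25, adjusted p = 0.0457). Both were read from probe sets of the kind that cross-hybridise with related sequences, and lambda genes are near-identical copies of each other, so which lambda gene is meant is uncertain. A second cross-hybridising probe set of IGLC1 gave −2.68 (adjusted p = 0.0264 over all annotated probe sets). With such probe sets left out, IGLC1 departed by 0.01 (adjusted p = 0.999) and IGLV1-44 by 0.08 (adjusted p = 0.984). The IGLV1-44 probe set then read averaged 3.22 with both constructs, 3.29 with IRF5-4D, 3.15 with IKKβ(EE) and 3.30 in mock cells, under the lower quartile in every group, so it does not test the departure. That of IGLC1 averaged 6.24 with both constructs, 5.48 with IRF5-4D, 5.74 with IKKβ(EE) and 5.0 in mock cells.

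RNA45SN5, a copy of the gene for the 45S precursor of ribosomal RNA, was the 1 gene of the 6 called less than additive that was lower with both constructs than in mock cells, as 99 of all genes were (0.501%). It was at 7.68 and 7.89 with both constructs, 10.01 and 11.09 with IRF5-4D, 10.77 and 10.88 with IKKβ(EE) and 9.73 and 10.21 in mock cells. Both arrays of the combination lay below all 6 others, and neither single construct had an array below mock array 1. The difference of both constructs from mock was −2.19 (adjusted p = 0.00512) and the departure was −3.62 (SE 0.43, 95% interval −4.58 to −2.65, adjusted p = 0.0238). Copies of this gene are near identical, and the probe set is again of the cross-hybridising kind. The other probe set, which is not, gave −2.64 (adjusted p = 0.0848 over all annotated probe sets). Among 19 genes of ribosome biogenesis 0 were called (0 above and 0 below additivity at an unadjusted p under 0.05). Of these, 16 lay below 0 and 3 above it (53.25% of all genes lay above 0), and the median departure was −0.07.

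Levels near the floor touch most of these calls. Of the 19 genes above additivity, 13 averaged under the array median with each single construct and in mock cells, 3 had a group under the lower quartile, and 2 (CPEB2 and ACKR3) were above the median in every group. With values under the lower quartile raised to it, the departures of the 19 genes lay between 1.62 and 5.20 and no departure moved by over 1.5 times, but 2 genes, HSFX3 and BHLHE41, remained called, and 0 of the 6 below additivity (423 genes less than additive at an unadjusted p under 0.05 in limma). With values under the array median raised to it, the 19 departures lay between 0.90 and 3.97, and CXCL9 alone was called, at 2.11. All CXCL9 arrays without the combination lay under the median. This floor therefore replaced their spread between replicates by that of the array medians, and the call does not show that CXCL9 is robust to it. BHLHE41 was then at 0.90, PCP4 at 1.03, IL10RA at 1.58, GPR84 at 1.73 and TMCC3 at 2.17, while AFTPH-DT was at −0.42 and INHBA at −1.0. With these floors the degrees of freedom that limma borrows across genes were 2.99 and 2.89, against 5.09 without a floor. The 2 fits held 17275 and 13014 genes, since genes at the floor on all arrays were left out. What part either had in the lost calls was not tested. When only genes averaging above the median of all genes were fitted, 0 genes were called in either direction, with 352 more and 245 less than additive at an unadjusted p under 0.05. This average takes in all 8 arrays, so the filter does not select genes above the floor in every group. IL1RN entered that fit with means of 4.05 in mock cells and 4.08 with IKKβ(EE).

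On the linear scale, where the constructs add if their increases in signal sum, all 25 called genes departed in the direction they had on the log2 scale. Their linear departures ran from 51.7 to 1045 intensity units in the 19 genes and from −2087 to −33.6 in the 6. The sign differed between the scales in 319 of all genes (1.61%). Over 5 equal bins of the mean level, the median departure was 0.02, 0.02, 0.07, 0.03 and −0.04 from the lowest bin to the highest, and the bins held 0, 12, 10, 0 and 3 called genes. No call fell in the lowest bin, whose genes averaged 2.56 to 3.90. The mean level takes in the arrays with both constructs, so a large positive departure itself lifts a gene to a higher bin. The bins therefore do not show how near the floor a called gene was without the combination.

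The arrays numbered 1 and those numbered 3 share no sample and give the departure once each, though they were normalized together. All 19 genes above additivity were positive in both (1.84 to 5.46 from arrays 1 and 1.15 to 4.66 from arrays 3), and all 6 below it were negative in both. As the call uses all 8 arrays, this is a description. In 18 of the 19 genes array 1 of both constructs was above array 3, against 49.5% of all genes, and the departure was larger from arrays 1 in 14. When genes were instead chosen in one number and read in the other, the 47 genes with a departure of at least 2 in arrays 1 had a median of 2.02 in arrays 3, where all 47 were positive and 41 were at least 1, a size reached by 1.17% of all genes. The 38 genes chosen this way in arrays 3 had a median of 2.62 in arrays 1, where all 38 were positive and 30 were at least 1 (1.2% of all genes). The 11 genes at −2 or below in arrays 1 had a median of −2.53 in arrays 3, with all 11 at −1 or below (0.526% of all genes). The 11 chosen in arrays 3 had a median of −2.15 in arrays 1, with 10 at −1 or below (0.501% of all genes). Across all genes Pearson's r between the 2 departures was 0.41 and Spearman's rho 0.23, over genes that share libraries and are not independent.

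**Figure D4:**
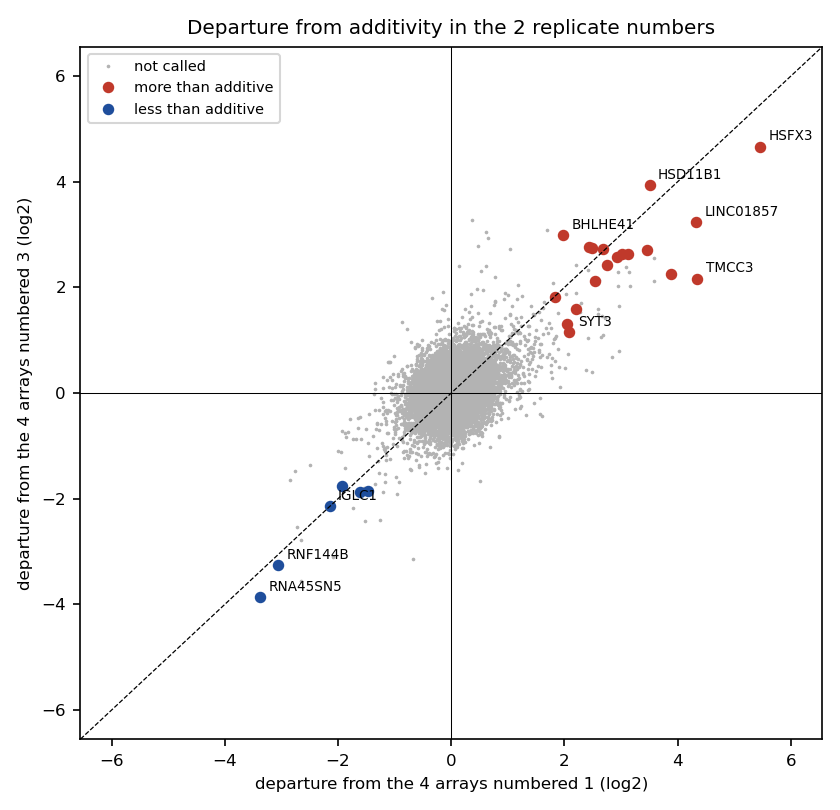
Departure from additivity of each gene computed from the 4 arrays numbered 1 (x axis) and from the 4 arrays numbered 3 (y axis), both on the log2 scale, with the line of equality dashed. All 19 red genes lie in the upper right and all 6 blue genes in the lower left, and 14 of the red genes lie right of the dashed line.

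The same reading across numbers gives the departure of genes grouped by their response to the single constructs. Of the 141 genes that only IKKβ(EE) raised at least 2-fold in arrays 1, 35.5% had a positive departure in arrays 3, with a median of −0.33. Of the 111 chosen in arrays 3, 23.4% were positive in arrays 1, with a median of −0.46. Among genes that only IRF5-4D raised, the medians were 0.03 (78 genes chosen in arrays 1) and 0.38 (80 genes chosen in arrays 3). The 27 genes that each single construct raised had medians of −0.31 and 0.09, which differ in sign between the numbers. Genes at least 2-fold up with both constructs and with neither alone numbered 296 and 233, and 80.4% and 90.1% of them were positive in the other number, with medians of 0.43 and 0.67. Those 2-fold down with both constructs and with neither alone numbered 127 and 49, and had medians of 0.06 and −0.30. Among all genes 51.4% were positive in arrays 3 and 54.0% in arrays 1.

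Known targets of NF-κB rose with the combination in many cases without a called departure. Of 36 measured targets, 15 rose with both constructs against mock (2.66% of all genes did), and limma called 0 in the interaction (5 above and 3 below additivity at an unadjusted p under 0.05). The median departure of the 36 was −0.04, against 0.02 for all genes. CXCL8, the neutrophil chemokine interleukin-8, had the lowest departure, from arrays at 7.56 and 7.30 with both constructs, 8.37 and 8.05 with IRF5-4D, 11.23 and 10.74 with IKKβ(EE) and 9.39 and 7.93 in mock cells. It was highest with IKKβ(EE) alone and lowest with both constructs, with a departure of −3.11 (95% interval −4.35 to −1.86, adjusted p = 0.118). EBI3, a subunit of interleukin-27 and interleukin-35, had the highest, from arrays at 10.99 and 9.92 with both constructs, 4.38 and 4.40 with IRF5-4D, 7.84 and 7.41 with IKKβ(EE) and 3.86 and 4.62 in mock cells. Its departure was 2.68 (95% interval 1.59 to 3.77, adjusted p = 0.125). BCL2A1, an inhibitor of apoptosis, had 2.31 (95% interval 0.84 to 3.77, adjusted p = 0.472), and LTA, the cytokine lymphotoxin-α, had 1.42 (95% interval 0.78 to 2.07, adjusted p = 0.17). Among 22 NF-κB subunits and feedback inhibitors 0 were called (0 above and 2 below additivity at an unadjusted p under 0.05). Of these, 15 lay below 0 and 7 above it (53.25% of all genes lay above 0). NFKBID, an inhibitor of the IκB family, was at 6.63 with both constructs, 7.14 with IRF5-4D, 7.15 with IKKβ(EE) and 6.55 in mock cells, with a departure of −1.11 (95% interval −2.01 to −0.21, adjusted p = 0.66).

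Of 34 chemokines 1 was called, CXCL9 (0.126% of all genes were called in either direction). The median departure was 0.03, with 17 above and 17 below 0. Of the 34, 22 averaged under the array median in all 4 groups. CXCL10 and CXCL11, the other ligands of CXCR3, had departures of 1.05 (95% interval −0.22 to 2.31, adjusted p = 0.874) and 1.27 (95% interval −0.19 to 2.72, adjusted p = 0.864). CCL5, which attracts T cells and monocytes, had 0.09 (95% interval −0.98 to 1.16, adjusted p = 0.995), an interval that reaches just past 2-fold in the positive direction. CCL8, a chemokine that attracts monocytes, had −2.11 (95% interval −2.84 to −1.39, adjusted p = 0.0662). Of 35 interleukins and other cytokines 1 was called, IL1RN, and 26 lay above 0 (53.25% of all genes did), with a median of 0.23. However, 20 of the 35 averaged under the array median in all 4 groups, so these values largely describe genes with low signal. IL12A, a subunit of interleukin-12, was at 10.68 and 9.42 with both constructs, 7.46 and 6.94 with IRF5-4D, 6.05 and 6.02 with IKKβ(EE) and 5.78 and 5.82 in mock cells. Both arrays of the combination were above the others, but the departure of 2.62 (95% interval 1.55 to 3.70, adjusted p = 0.126) did not pass. LIF, a cytokine of the interleukin-6 family, had 2.07 (95% interval 1.18 to 2.97, adjusted p = 0.142). In the TNF superfamily of ligands and receptors, 0 of 31 were called (3 above and 2 below additivity at an unadjusted p under 0.05) and the median was 0.10. TNFSF4, the ligand of OX40, had 1.26 (95% interval 0.50 to 2.03, adjusted p = 0.415).

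Interferon-stimulated genes lay slightly above additivity at the median. Of 46 measured, 20 rose and 1 fell with both constructs against mock (2.66% and 0.501% of all genes), and 0 were called in the interaction (3 above and 0 below additivity at an unadjusted p under 0.05). The median departure was 0.12, with 30 above and 16 below 0 (53.25% of all genes lay above 0). EPSTI1, an interferon-induced gene, was at 6.26 and 5.75 with both constructs, 4.34 and 3.63 with IRF5-4D, 4.14 and 4.18 with IKKβ(EE) and 4.26 and 3.92 in mock cells. Its departure was 1.95 (95% interval 1.17 to 2.73, adjusted p = 0.116). IRF9, the DNA-binding part of the complex that drives these genes, was at 8.50 and 8.98 with both constructs, 6.97 and 6.89 with IRF5-4D, 7.09 and 7.05 with IKKβ(EE) and 6.97 and 6.61 in mock cells. Its departure was 1.53 (95% interval 0.96 to 2.10, adjusted p = 0.0946). RSAD2, the antiviral enzyme viperin, had the lowest of the list, −0.58 (95% interval −1.90 to 0.75, adjusted p = 0.942). Among the 10 interferon regulatory factors 0 were called (3 above and 1 below additivity at an unadjusted p under 0.05) and 8 lay above 0 (53.25% of all genes did). IRF4, a factor of plasma cells and activated B cells, had 1.39 (95% interval 0.35 to 2.44, adjusted p = 0.598). Of 19 JAK-STAT and SOCS genes 0 were called (1 above and 3 below additivity at an unadjusted p under 0.05) and the median was −0.01. SOCS1, an inhibitor of JAK kinases, had −0.98 (95% interval −1.81 to −0.15, adjusted p = 0.695).

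Class II MHC genes, which present antigen to helper T cells, had a median below additivity. Of 14 measured, 11 rose with both constructs against mock (2.66% of all genes did), and 0 were called in the interaction (1 above and 5 below additivity at an unadjusted p under 0.05). Below 0 lay 12 and above it 2 (53.25% of all genes lay above 0), and the median was −0.31. HLA-DQA1 was at 11.95 and 10.99 with both constructs, 7.30 and 6.73 with IRF5-4D, 11.64 and 11.10 with IKKβ(EE) and 4.90 and 3.73 in mock cells. IKKβ(EE) alone and both constructs gave overlapping levels, IRF5-4D alone an intermediate one, and the departure was −2.60 (95% interval −3.92 to −1.28, adjusted p = 0.258). HLA-DMB, which helps to load peptides, had −0.63 (95% interval −1.01 to −0.24, adjusted p = 0.444), and CIITA, the master activator of the class, had −0.31 (95% interval −1.23 to 0.60, adjusted p = 0.957). HLA-DOB, which restrains loading in B cells, had the highest value, 1.18 (95% interval 0.35 to 2.01, adjusted p = 0.535). Of 20 class I genes 0 were called (0 above and 0 below additivity at an unadjusted p under 0.05) and the median was 0.03.

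The list of 48 genes associated with Hodgkin lymphoma was chosen with the pathways of this study in mind and is not independent of them. Of these, 17 rose with both constructs against mock (2.66% of all genes did) and 0 were called in the interaction (13 above and 4 below additivity at an unadjusted p under 0.05, where 3.82% and 2.28% of all genes stood). The median was 0.16. CCR7, the receptor that guides lymphocytes to lymph nodes, had −0.67 (95% interval −1.87 to 0.53, adjusted p = 0.922), and FSCN1, an actin-bundling protein of Reed-Sternberg cells, had −1.40 (95% interval −1.93 to −0.87, adjusted p = 0.0987). BATF3, a partner of AP-1 and IRF proteins, had 1.08 (95% interval 0.69 to 1.47, adjusted p = 0.084), and GATA3, a T cell factor seen in Hodgkin cells, had 2.06 (95% interval 1.05 to 3.07, adjusted p = 0.226). Of 17 Fc receptor genes 1 was called, FCER1G (0.126% of all genes were called in either direction), and 9 lay below 0. In all 4 groups 9 of the 17 averaged under the array median. Of 28 AP-1 and immediate early genes 1 was called, DUSP4 (against the same 0.126%), with a median of 0.15.

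Lineage genes had medians near that of all genes. Among 37 B cell genes 0 were called (2 above and 1 below additivity at an unadjusted p under 0.05) and the median was 0.03, and among 23 precursor B cell genes 0 were called (2 above and 1 below additivity at an unadjusted p under 0.05) and the median was 0.05. LYN, a Src family kinase of the B cell receptor, had 1.49 (95% interval 0.90 to 2.08, adjusted p = 0.116), and MS4A1, which encodes CD20, had 1.61 (95% interval 0.14 to 3.08, adjusted p = 0.747). SMAD1, a transcription factor of BMP signalling, had −0.89 (95% interval −1.27 to −0.50, adjusted p = 0.142). Of 37 cell cycle genes 0 were called (1 above and 3 below additivity at an unadjusted p under 0.05). Of these, 31 lay below 0 and 6 above it (53.25% of all genes lay above 0), with a median of −0.25. CCNB1, the mitotic cyclin B1, had −0.90 (95% interval −1.66 to −0.13, adjusted p = 0.704), and CCND1, cyclin D1, had 1.10 (95% interval 0.25 to 1.95, adjusted p = 0.625). Of 28 apoptosis regulators 0 were called (3 above and 2 below additivity at an unadjusted p under 0.05), with a median of 0.02, and CFLAR, an inhibitor of caspase-8, had 1.64 (95% interval 0.87 to 2.42, adjusted p = 0.195). Of 18 granule genes 0 were called (3 above and 1 below additivity at an unadjusted p under 0.05). SRGN, the proteoglycan core of secretory granules, had 2.39 (95% interval 1.42 to 3.37, adjusted p = 0.125), and GZMA, a granzyme, had −1.54 (95% interval −2.50 to −0.58, adjusted p = 0.454). Of 20 stress response genes 0 were called (2 above and 2 below additivity at an unadjusted p under 0.05), with a median of 0.12. TRIB3, a pseudokinase of the integrated stress response, had 1.79 (95% interval −1.13 to 4.71, adjusted p = 0.912), and its wide interval does not separate a departure from additivity. The 11 reference genes had a median of −0.10 with all 11 below 0, and 0 were called (0 above and 0 below additivity at an unadjusted p under 0.05). In the highest of the 5 bins of mean level, 42.55% of genes lay above 0. What part the level had in the medians of the lists was not tested.

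**Figure D5:**
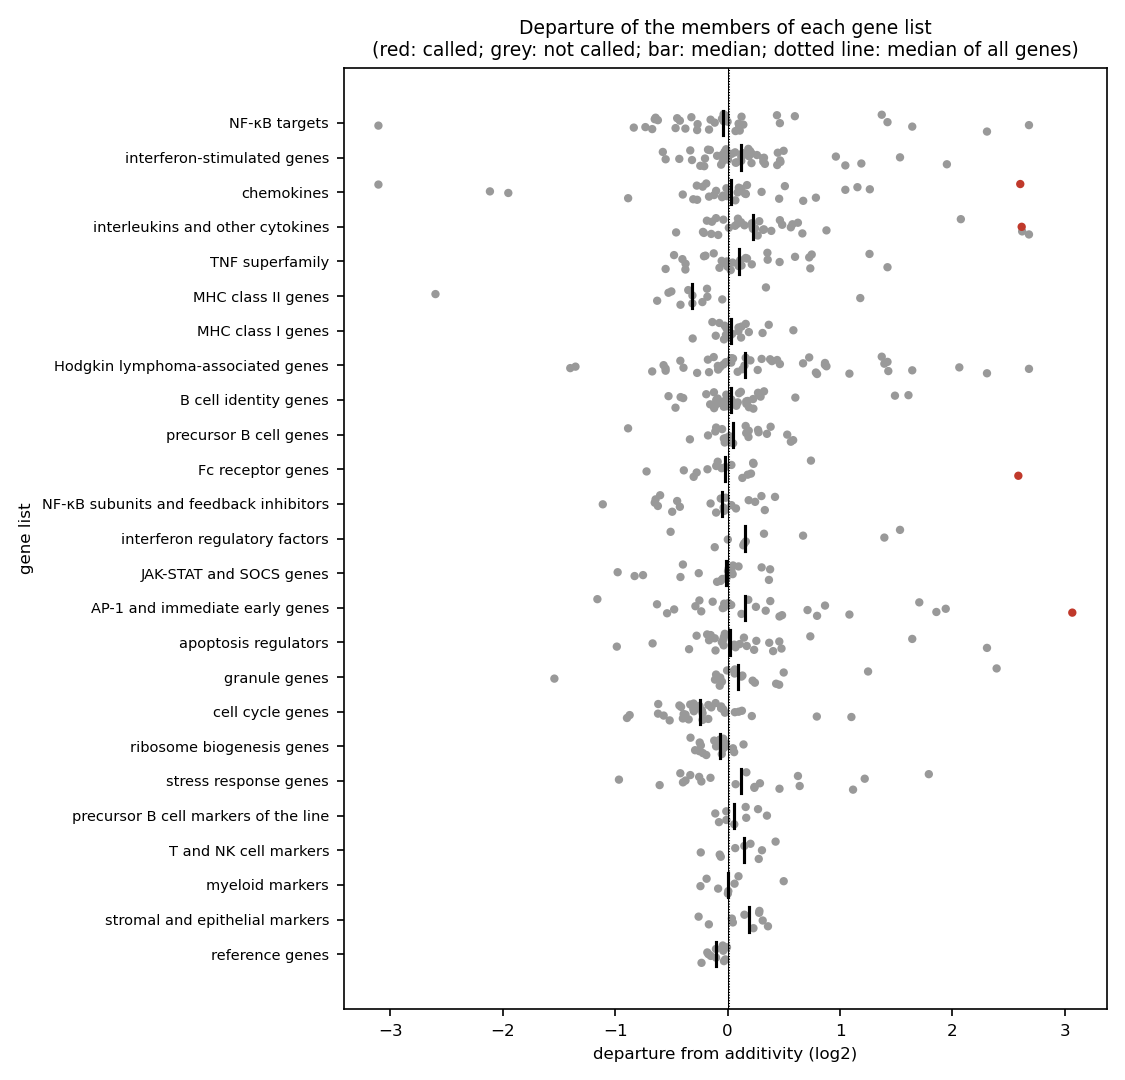
Departure from additivity (log2) of every measured member of the 25 gene lists, with called genes in red, others in grey, the median of each list as a bar and the median of all genes as a dotted line. The medians run from −0.31 in class II MHC genes to 0.23 in interleukins and other cytokines, and 4 listed genes are called. In that cytokine list 20 of 35 members averaged under the array median in all 4 groups.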

How the data were processed

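Total RNA of 8 Reh cultures was hybridised to Affymetrix U133 Plus 2.0 arrays. The deposited values are log2 intensities made with RMA, per the submitters' processing notes; RMA corrects background, normalizes quantiles and summarises probes, and no version is stated. Because the values come already normalized across all 8 arrays, a shift common to all genes cannot be seen, and low values are compressed toward the floor. Of 54675 probe sets, 62 controls and 13522 without exactly 1 gene symbol (1801 had several) were left out. The other 41091 were named from the platform annotation, 41037 of them by an Entrez number found in RefSeq, with 0 symbols changed. The probe set with the highest mean stood for each of 19775 genes, 10523 of which had more than 1.

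A group-means model was fitted with limma 3.58.1 in R 4.3.3 to the 4 groups, with 4 residual and 5.09 prior degrees of freedom, moderated variances and no block. p-values were adjusted by Benjamini-Hochberg over all genes. The median SE of a departure was 0.20, and 2 arrays per group limit the precision. Replicates of a group correlated at 0.994 to 0.997. The fit was tested on simulated data. Named were IRF5, IKBKB, the 14 largest departures above and the 10 largest below additivity among called genes, the 4 largest of each pattern, and of each of 25 lists (514 of 553 genes measured) the 4 largest called or, with none called, the 2 largest. SERPINE2, PCP4, LOC100128988, ACKR3 and SYT3 were added after their values were seen, so that all called genes appear, as were further list members named in the text. The members and lists were chosen with earlier results of these data known. Alternatives covered the choice of probe set, filters and floors for low values, scaling, variance model, threshold, the replicate number as a block and each array left out. The promoters came from RefSeq.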

Additional observations from a re-analysis of the deposited data

Results flagged for a closer look

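The estimated effect of one construct had opposite signs with and without the other in a number of called genes. Of these, 6 were picked because the arrays did not overlap in either pair of groups. Others were not picked, such as CPEB2, where IRF5-4D gave 2.59 with IKKβ(EE) and −0.11 without it, and TENM2 (2.73 and −0.15). The share of all genes with such an ordering was not counted, so with 2 arrays per group it is a description. In SYT3 the margin was small, with IKKβ(EE) array 3 at 4.3433 and mock array 3 at 4.3466. The differences of the effects are those tested in the interaction. For IRF5-4D, the effect on IL10RA was 2.54 with IKKβ(EE) and −0.28 without it, a difference of 2.82. RNF144B had −2.85 with IKKβ(EE) and 0.31 without it, a difference of −3.16. INHBA had −1.30 with and 0.36 without, a difference of −1.66. For IKKβ(EE), the effect on ACKR3 was 1.07 with IRF5-4D and −0.83 without it, a difference of 1.90. SYT3 had 1.48 with and −0.13 without, a difference of 1.62, and RNA45SN5 had −2.77 with and 0.85 without, a difference of −3.62. In the effects without the other construct, IL10RA, RNF144B, INHBA, ACKR3, SYT3 and RNA45SN5 had adjusted p-values of 0.992, 0.992, 0.935, 0.153, 0.923 and 0.53, so the sign of that smaller effect was not established.

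Among the 13522 probe sets without exactly 1 gene symbol, which no comparison of genes used, 3 were called in a fit of all non-control probe sets, chosen after seeing the data. The first averaged 5.77 with both constructs, 3.86 with IRF5-4D, 3.87 with IKKβ(EE) and 4.02 in mock cells, a departure of 2.07 (SE 0.16, adjusted p = 0.00295). The second averaged 5.76 with both constructs, 3.71 with IRF5-4D, 3.58 with IKKβ(EE) and 3.63 in mock cells, a departure of 2.10 (SE 0.18, adjusted p = 0.00582). The third averaged 6.17 with both constructs, 6.88 with IRF5-4D, 7.73 with IKKβ(EE) and 5.96 in mock cells, a departure of −2.49 (SE 0.27, adjusted p = 0.0204). They have no gene name here.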

How the results depend on the processing

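The main counts were 19 genes more and 6 less than additive. They were 8 and 1 with a gene's probe sets averaged, 2 and 0 with a floor at the lower quartile, 1 and 0 with a floor at the median, 0 and 0 with genes above the median level only (where 9 of the 25 genes had a value), and 29 and 11 at an adjusted p under 0.1. The genes less than additive numbered 3 without cross-hybridising (_x_at) probe sets and 11 with every probe set on its own, where those more than additive were 17 and 22. With each array left out in turn, the counts ranged between 0 and 73 and between 0 and 8. Of the 25 calls, 25 were kept under median centring, trend and array weights, and 21 with robust variance. Without _x_at probe sets 20 were kept, with another quantile normalization 17 and with the mean of probe sets 7. The looser threshold uses the main fit and keeps every call by definition, so it does not test them. With the replicate number as a block 36 genes were more and 20 less than additive, and the 25 calls were kept; samples of the same number had deviations correlated between −0.07 and 0.34, and with 2 numbers whose meaning is not given this is not taken as a pairing. Without _x_at probe sets IGLC1 (0.0127), IGLV1-44 (0.0787) and PPIA (0.0472) changed sign. With each array left out in turn, MPO ranged from −0.0424 (without array 3 of both constructs) to 1.04, and IKBKB, by its brightest probe set, from −0.118 to 0.0565 (above 0 without array 1 of both constructs, array 3 of IRF5-4D or array 1 of IKKβ(EE)). The causes were not tested. Of the 35 other probe sets of called genes, 19 had the sign of the one used and 5, in 4 genes, were called the same way. Among all 41091 annotated probe sets, 22 were called more and 11 less than additive. The share with the same sign was not counted in other genes, so the 19 are a description. Over these alternatives no list had more than 5 called members. Signal over background is low for the genes near the floor, and each group has 2 arrays.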
